A study of Mus musculus with 8 samples.

Results

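The methionine cycle and transsulfuration genes described here are Mat1a, Mat2a, Gnmt, Ahcy, Bhmt, Bhmt2, Mtr, Cbs, Cth and Pemt. They were taken by gene name from a table of 34745 mouse genes, and all 10 were present and were among the 11036 genes with enough counts to be tested. The libraries were made from oligo(dT)-enriched RNA of primary mouse hepatocytes. The mice were wild-type males given adeno-associated virus 8 (AAV8), and 4 libraries had the label AAV-GFP and 4 the label AAV-Trib3, a vector for mouse Trib3. Per the treatment protocol, which describes the Trib3 vector, virus was injected at an age of 6 weeks and cells were taken 4 weeks later. The labels name no promoter, vector dose or mouse strain. They do not say that each library came from a separate mouse, so p-values cover only the scatter among these libraries, which may be partly technical.

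Methionine is activated by methionine adenosyltransferase to S-adenosylmethionine (SAM), the methyl donor of most methylation reactions. Methyltransferases turn SAM into S-adenosylhomocysteine, which is split to homocysteine. Homocysteine is either methylated back to methionine, with betaine or a folate as the donor, or condensed with serine and passed through transsulfuration to cysteine. The liver is the main site of methionine breakdown, and hepatocytes carry the enzymes for each of these steps.

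Total counts ran from 11350442 to 15361128 per library. Trib3 itself had 32, 11, 34 and 55 counts in AAV-GFP replicates 1 to 4 and 458, 854, 881 and 299 in AAV-Trib3 replicates 1 to 4, a log2 difference of 4.17 ± 0.47 (SE) with no overlap of the groups that edgeR did not call after adjustment over all genes (adjusted p = 0.0675). Defining hepatocyte markers were abundant in every library (Alb at 48638 CPM or more, where CPM are counts after TMM normalisation for library size). Summed markers of Kupffer cells (8 of 9 tested) lay between 6.57 and 52.7 CPM with AAV-GFP and between 6.45 and 69.7 CPM with AAV-Trib3, and those of cholangiocytes (1 of 4 tested) between 1.10 and 4.52 CPM over all libraries. Sinusoidal endothelial markers (6 of 6 tested) summed to 13.6 to 61.8 CPM with AAV-GFP and 29.3 to 48.2 CPM with AAV-Trib3. Stellate cell markers (3 of 6 tested) summed to 3.47 to 25.7 CPM with AAV-GFP and 11.7 to 15.7 CPM with AAV-Trib3. AAV-GFP replicate 2 stood apart, with 32.0% of its counts from mitochondrially encoded genes against 14.9% to 18.5% in the others. In AAV-Trib3, replicates 1 and 4 stood apart from replicates 2 and 3 in 7 summed acute phase genes, at 29089 and 28777 against 10572 and 10287 CPM, with AAV-GFP between 9385 and 15711 CPM.

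No methionine cycle or transsulfuration gene was called between the groups. In edgeR's quasi-likelihood test, adjusted over all genes at 0.05, 0 of the 10 members passed, against 0.00% of all genes tested. At an unadjusted p under 0.05 the count was 0 of 10 members in edgeR, DESeq2 and limma-voom alike, while 3.14% of all genes reached it in edgeR, 3.70% in DESeq2 and 3.14% in limma-voom. After adjustment DESeq2 called 0 members and 0.0703% of all genes, and limma-voom called 0 members and 0.00% of all genes. The groups overlapped in 10 of 10 members, and did not overlap in 2.29% of all genes. Of the 10, 5 had a higher and 5 a lower mean with AAV-Trib3, with a median log2 difference of −0.02, and over all genes tested 47.9% were higher, with a median of −0.01. Log2 differences of members ran from −0.36 for Pemt to 0.32 for Cth, with SEs between 0.14 and 0.36. In bulk RNA, fewer cells of a type and less RNA per cell cannot be told apart.

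**Figure D1:**
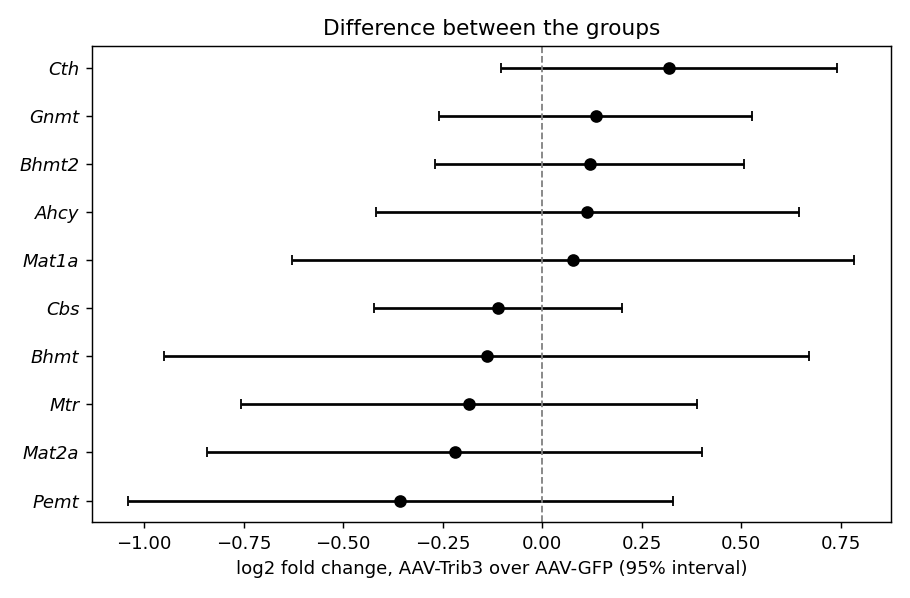
Log2 fold change of each of the 10 genes, AAV-Trib3 over AAV-GFP (edgeR, 4 libraries each), with points for the estimate and bars for the 95% interval. All 10 intervals include 0, the narrowest being that of Cbs and the widest that of Bhmt.

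Together the members took 0.566%, 0.513%, 0.925% and 0.516% of all counts in AAV-GFP replicates 1 to 4 and 0.772%, 0.581%, 0.678% and 0.710% in AAV-Trib3 replicates 1 to 4. The means, 0.630% ± 0.198 with AAV-GFP and 0.685% ± 0.080 with AAV-Trib3 (SD, n = 4), were closer together than the libraries within a group (p = 0.6 in an exact two-sided permutation test). The high mitochondrial share of AAV-GFP replicate 2 lowers its value. Of non-mitochondrial counts, the members took 0.680%, 0.755%, 1.11% and 0.606% in AAV-GFP replicates 1 to 4. The means were then 0.787% ± 0.223 and 0.827% ± 0.091 (SD, n = 4, exact two-sided permutation p = 0.8). The highest value belonged to AAV-GFP replicate 3, where Mat1a alone made up 57.9% of the members' counts.

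By the deposited FPKM (counts scaled by gene length and library total), Mat1a was the most abundant member, with a median of 812 over the 8 libraries (604 to 1669), followed by Gnmt at 683 (498 to 745). Their ranges overlapped, and Mat1a was the higher one within 8 of 8 libraries. Ahcy (174) and Bhmt (163) came next and could not be ranked against each other, since Ahcy was the higher one in 4 of 8 libraries. Cth (75.7), Bhmt2 (65.2) and Pemt (60.1) came next with overlapping ranges, Cth being above Bhmt2 in 7 and Bhmt2 above Pemt in 5 of 8 libraries. Below them, with no overlap of neighbouring ranges, Cbs stood at 37.3, Mat2a at 7.29 and Mtr, the lowest, at 0.847 FPKM. The lengths behind these FPKM matched the sum of all distinct annotated exons, in which bases shared by several isoforms count more than once, for 68% of 9807 genes checked. For Mat2a that length was 9109 bases, against 4486 bases of merged exons. The lengths of Mat1a, Gnmt, Bhmt, Mtr and Cbs did not match that sum. Those of Mat1a, Mtr and Cbs, 3208, 4482 and 5506 bases, were below their merged exons of 3468, 8524 and 7485 bases. With merged exons of GENCODE M21 as the length, the order was the same except that Gnmt (896) moved before Mat1a (751), the higher of the 2 in 5 of 8 libraries, and Pemt (87.5) before Bhmt2 (65.2). Mat2a then stood at 14.8, on the same scale as the other values with merged exons. Its range, 9.52 to 23.8, then overlapped that of Cbs, 16.1 to 33.4, though Cbs was the higher one within 8 of 8 libraries. Ahcy was then above Bhmt in 7 of 8 libraries.

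**Figure D2:**
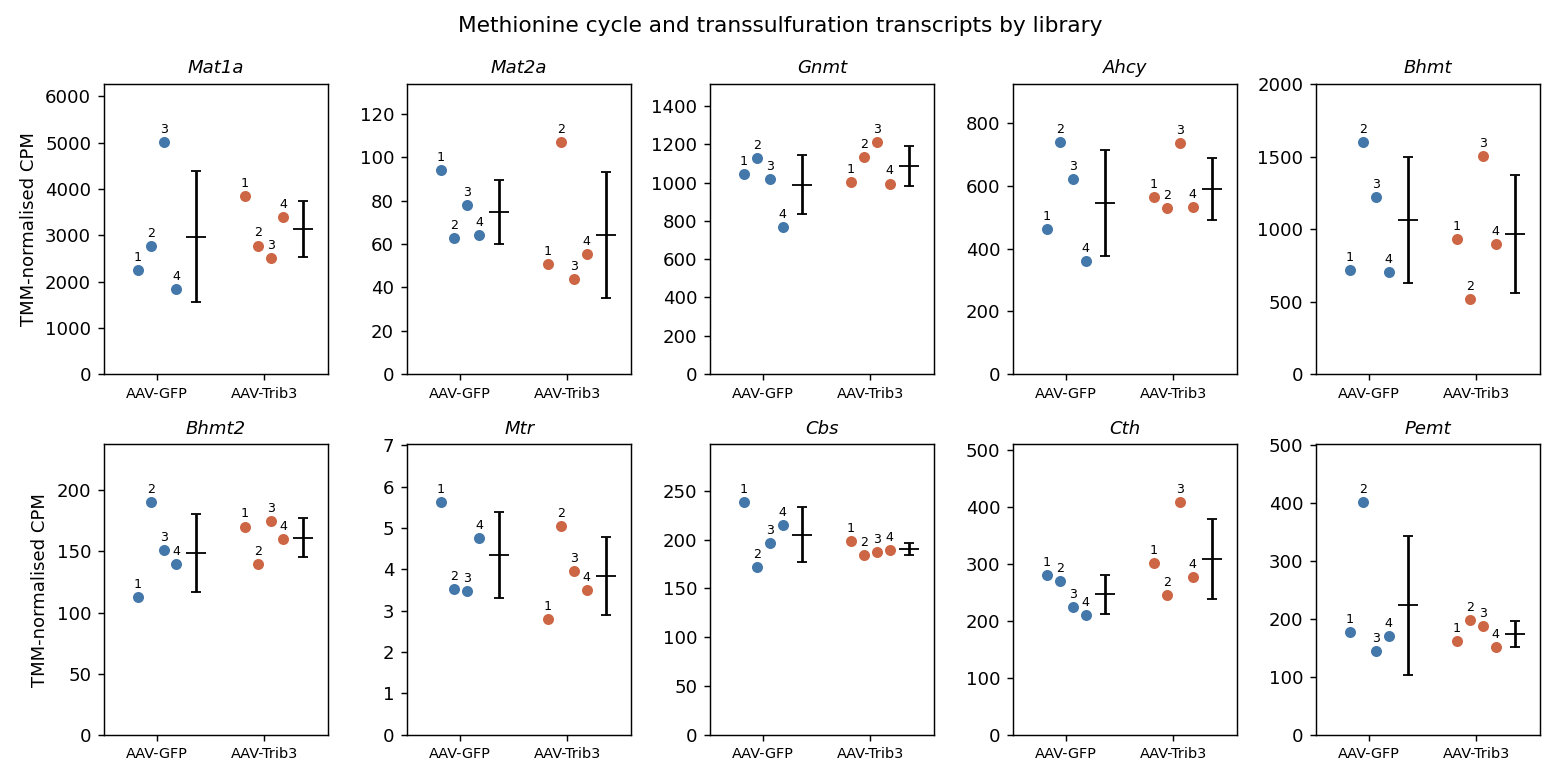
TMM-normalised CPM of each gene in the 8 libraries, with the replicate number beside each point and the mean and SD of the 4 libraries as a bar at the side of each group. The groups overlap in every panel, and single libraries stand out for Mat1a (AAV-GFP replicate 3), Mat2a (AAV-Trib3 replicate 2) and Pemt (AAV-GFP replicate 2).

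SAM synthesis in adult hepatocytes rests on Mat1a, the liver form of methionine adenosyltransferase, whereas Mat2a is the form of other tissues and of dividing liver cells. Mat1a (ENSMUSG00000037798, plus strand, chr14:41105381-41124412 in mm10) had 2250, 2771, 5022 and 1843 CPM in AAV-GFP replicates 1 to 4 and 3842, 2779, 2517 and 3404 CPM in AAV-Trib3 replicates 1 to 4. AAV-GFP held both the highest and the lowest value, so the groups overlapped fully. The means were 2971 ± 1419 and 3136 ± 600.2 CPM (SD, n = 4), or 0.08 ± 0.32 apart on the log2 scale (SE; edgeR adjusted p = 1.00 to 2 decimals, as for all 10 members, and unadjusted p = 0.811). Leaving out AAV-GFP replicate 3 gave 0.46 and leaving out AAV-GFP replicate 4 gave −0.10.

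Mat2a (ENSMUSG00000053907, minus strand, chr6:72432799-72439558 in mm10) had 94.3, 63.0, 77.9 and 64.2 CPM in AAV-GFP and 50.7, 107, 43.9 and 55.4 CPM in AAV-Trib3 replicates 1 to 4. Replicates 1, 3 and 4 of AAV-Trib3 lay below all 4 AAV-GFP libraries, and AAV-Trib3 replicate 2 lay above them. The means were 74.8 ± 14.6 and 64.3 ± 29.01 CPM (SD, n = 4), with a log2 difference of −0.22 ± 0.28 (SE; edgeR unadjusted p = 0.449) that ran from −0.59 without AAV-Trib3 replicate 2 to −0.07 without AAV-Trib3 replicate 3, and was −0.09 without AAV-GFP replicate 1. Without AAV-Trib3 replicate 2, Mat2a was the 1 of 10 members whose groups did not overlap, where 4.71% of all genes did not, and it was not called. Mat2b, which encodes the regulatory partner of the Mat2a protein, had 17.1 ± 3.4 and 19.9 ± 1.2 CPM, and Mettl16, the RNA methyltransferase that acts on Mat2a transcripts, had 13.3 ± 1.3 and 11.97 ± 1.87 CPM.

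Mat2a is known for a feedback that reads SAM through its 3′ untranslated region. Hairpins there are methylated by METTL16 when SAM is plentiful, and when SAM is scarce the enzyme stays bound and the splicing of a retained intron is favoured, which yields more mature transcript. The motif in these hairpins is TACAGAGAA in DNA letters, with TACAGAAAA as a variant. On the transcript strand, the 2178 bases of the longest annotated Mat2a 3′ untranslated region (GENCODE M21) held 5 matches of the first and 1 of the second, with no overlap between them. Among 4789 genes with an untranslated region at least as long, the first 2178 bases held the first motif in 3.61% and the variant in 2.51%. The 6 matches are shown, each in 30 bases read 5′ to 3′ on the minus strand (GRCm38), to let the shared letters be seen, with the motif in capitals.
Mat2a site 1, chr6:72434234-72434263: tggcgtaggtTACAGAGAAgccttcaagct
Mat2a site 2, chr6:72433450-72433479: ccttgtgataTACAGAGAAgtcacagggca
Mat2a site 3, chr6:72433271-72433300: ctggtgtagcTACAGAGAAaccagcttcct
Mat2a site 4, chr6:72433156-72433185: atggcgtaagTACAGAGAAgccatcacctc
Mat2a site 5, chr6:72433045-72433074: caaggtgtccTACAGAAAAaccttgggtta
Mat2a site 6, chr6:72432937-72432966: gctggtgtggTACAGAGAAgccagcttgtt
The counts per gene do not separate mature Mat2a transcripts from those with the retained intron, so this step was not measured.

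Within a library, a ratio of 2 transcripts does not depend on how libraries are scaled. The FPKM ratio of Mat2a to Mat1a was 0.0148, 0.00800, 0.00546 and 0.0123 in AAV-GFP replicates 1 to 4 and 0.00465, 0.0136, 0.00614 and 0.00573 in AAV-Trib3 replicates 1 to 4. The level of Mat1a thus exceeded that of Mat2a in 8 of 8 libraries, also with merged exons as the length, where the ratio lay between 0.0102 and 0.0324. The spread between libraries exceeded the difference of the groups (log2 difference −0.46, exact two-sided permutation test, p = 0.343, 0.667 adjusted over the 5 ratios compared).

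**Figure D3:**
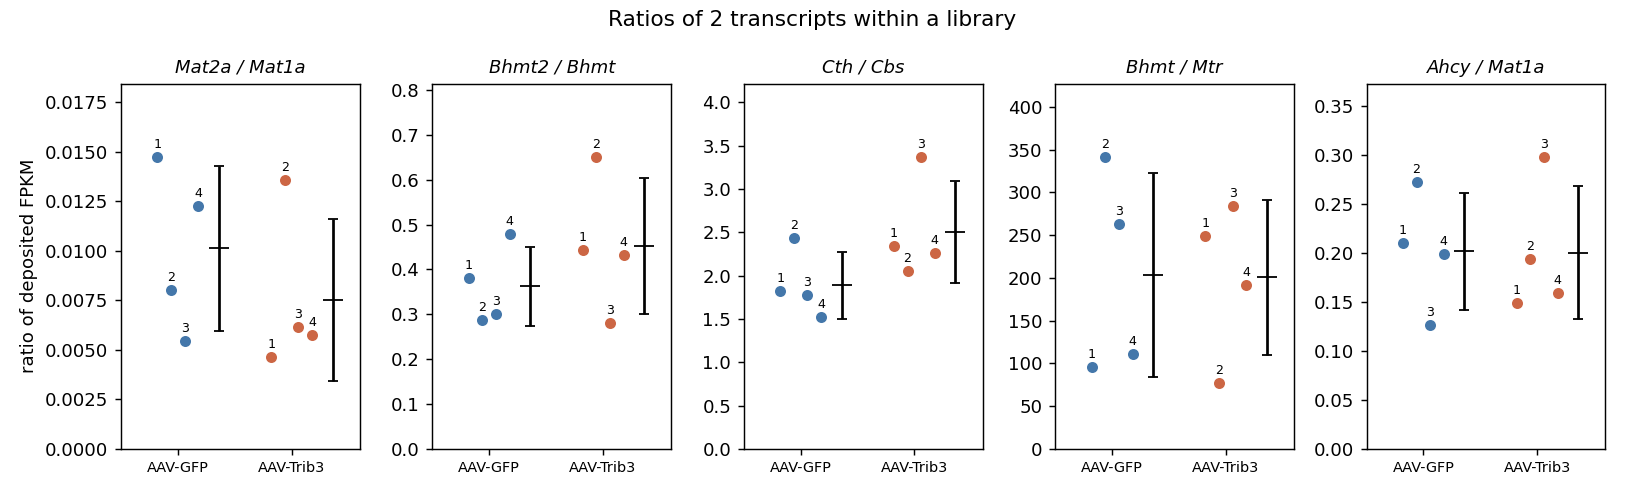
Ratios of deposited FPKM of 2 genes within each library, with the replicate number beside each point and the mean and SD of the 4 libraries at the side of each group. Groups overlap in all 5 ratios, and Cth to Cbs shows the smallest permutation p, 0.114.

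SAM is used up by methyltransferases, of which Gnmt and Pemt carry much of the flux in liver. Gnmt, glycine N-methyltransferase, buffers SAM by making sarcosine (ENSMUSG00000002769, minus strand, chr17:46725664-46729168 in mm10). It had 1042, 1127, 1021 and 768 CPM in AAV-GFP and 1004, 1133, 1213 and 995 CPM in AAV-Trib3 replicates 1 to 4. AAV-GFP replicate 4 was low, and the remaining 7 libraries lay close together. The means were 989 ± 154 and 1086 ± 105 CPM (SD, n = 4), with a log2 difference of 0.13 ± 0.18 (SE; edgeR unadjusted p = 0.463).

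Pemt methylates phosphatidylethanolamine to phosphatidylcholine and so competes with the CDP-choline route (ENSMUSG00000000301, minus strand, chr11:59970614-60046489 in mm10). It had 178, 400.5, 144 and 170.1 CPM in AAV-GFP and 161, 198, 187 and 151 CPM in AAV-Trib3 replicates 1 to 4. The 7 libraries other than AAV-GFP replicate 2 lay within 144 and 198 CPM. The means were 223 ± 119 and 174 ± 22 CPM (SD, n = 4), or −0.36 ± 0.31 (SE) apart on the log2 scale. The edgeR unadjusted p was 0.272 and the exact two-sided permutation p was 0.714. The log2 difference became 0.09 without AAV-GFP replicate 2. That library is the one with the high mitochondrial share, and the part of that share in the Pemt value was not tested. It also had the lowest TMM factor, 0.699 against 0.973 to 1.15 in the others, which raises its CPM. With all libraries and library size alone as the scale, the log2 difference of Pemt was −0.20.

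Ahcy splits S-adenosylhomocysteine, which would otherwise inhibit methyltransferases (ENSMUSG00000027597, minus strand, chr2:155059310-155074497 in mm10). It had 463, 740.4, 621 and 359 CPM in AAV-GFP and 563, 530.0, 737 and 533 CPM in AAV-Trib3 replicates 1 to 4. AAV-Trib3 replicate 3 stood above its group, whose other libraries lay between 530.0 and 563 CPM, and AAV-GFP spanned the whole range in CPM. In FPKM, which are scaled by library total without TMM, AAV-GFP ran from 131 to 210, and AAV-Trib3 replicate 3 stood above it at 228. The means were 546 ± 168 and 591 ± 98.7 CPM (SD, n = 4), with a log2 difference of 0.11 ± 0.24 (SE; edgeR unadjusted p = 0.643). With library size alone as the scale, the log2 difference of Ahcy was 0.21.

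Counts of Ahcy and Bhmt are uncertain, because each has a near-identical copy elsewhere in the genome that carried about as many counts or more. The copies were found by aligning the longest coding transcript of each member to all GENCODE M21 transcripts, with at least 85% identity over 500 bases. Gm4737 on chromosome 16 matched Ahcy at 99.7% over 2086 bases. It had 8539 to 14707 counts per library, 1.18 to 1.71 for each count of Ahcy and more than Ahcy in 8 of 8 libraries. Gm5096 matched Bhmt at 99.4% over 1869 bases and had 8625 to 20882 counts, or 0.973 to 1.33 for each count of Bhmt. Bhmt-ps1, a processed pseudogene with 98.9% identity over 1224 bases, added 469 to 1105 counts. No source used here says how reads that match several genes were counted, so transcripts of a gene and its copies cannot be told apart in these counts. For Mat1a, Gnmt, Bhmt2, Cbs, Cth and Pemt, 0 copies of this kind were found. Pseudogene copies of Mat2a (Gm9523), Mtr (Gm48675) and Ahcy (Gm9826, Gm5638 and Gm4913) were not analysed here. Exons of Particl lie on the opposite strand of Mat2a, and its 0 to 16 counts per library are few beside the 576 to 1463 of Mat2a. Gm43314 overlaps Cth on the same strand, without overlap of annotated exons. It had 33 to 311 counts per library, beside 2690 to 5344 of Cth, and its part in the Cth counts was not tested.

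**Figure D4:**
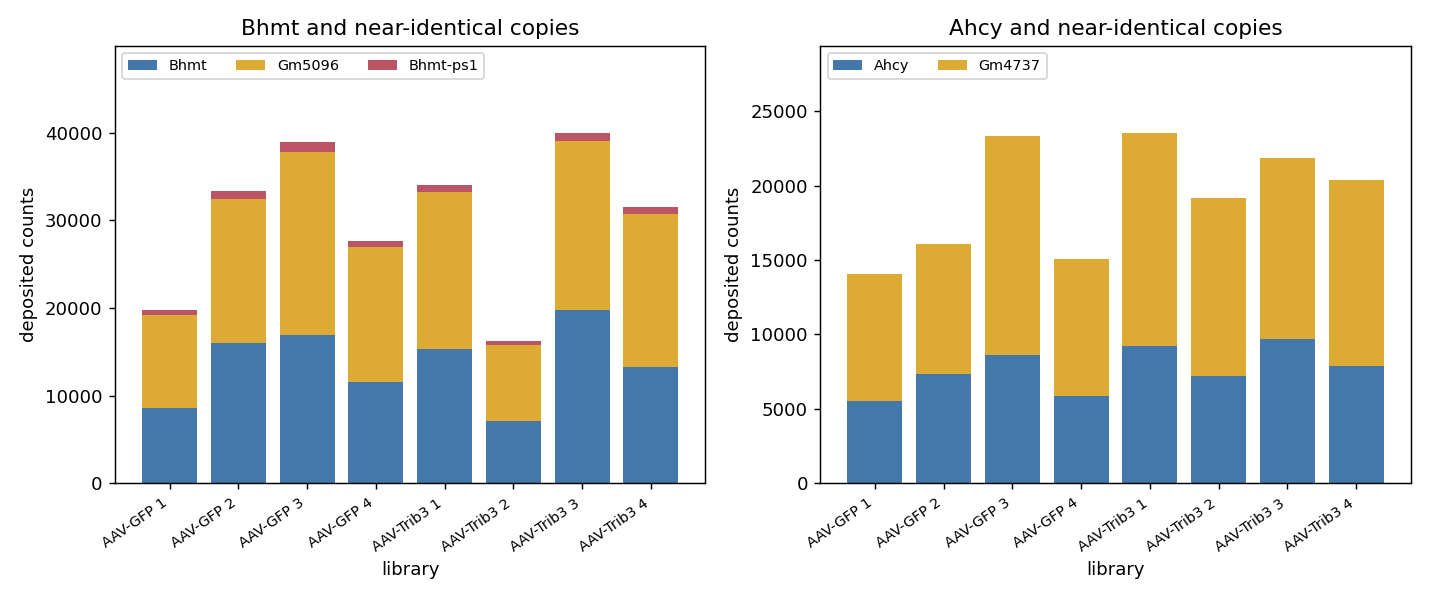
Deposited counts of Bhmt with Gm5096 and Bhmt-ps1 (left) and of Ahcy with Gm4737 (right), stacked for each library. Gm4737 takes 54.1% to 63.1% of the summed Ahcy counts and Gm5096 takes 48.2% to 55.6% of the summed Bhmt counts.

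Summed with its copy, Ahcy had 1349 ± 363 CPM with AAV-GFP and 1471 ± 133 CPM with AAV-Trib3 (SD, n = 4), or 0.12 ± 0.22 apart on the log2 scale (SE; edgeR unadjusted p = 0.582). Summed Bhmt had 2375 ± 841 and 2109 ± 758 CPM, a log2 difference of −0.17 ± 0.33 (edgeR unadjusted p = 0.615). Both sums gave nearly the same differences as the genes alone. Reads shared by a gene and its copy may have been split between them or counted for each. The sums therefore cannot show whether the copies affect the differences. Scaled by the merged exons of the gene and by the library total, the sums had medians of 511 for Ahcy and 389 for Bhmt. With them Ahcy ranked above Bhmt by median, and both kept a place below Gnmt and Mat1a. This ranking is only rough, since the length was that of the gene alone. Merged exons were 2805 bases for Ahcy and 5758 for Bhmt, while Gm4737 matched over 2086 and Gm5096 over 1869 bases. Shared reads may also have been counted for both gene and copy.

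Homocysteine is methylated back to methionine by 3 of the members. Bhmt, which uses betaine (ENSMUSG00000074768, minus strand, chr13:93616891-93637961 in mm10), had 721, 1604, 1220 and 706 CPM in AAV-GFP and 933, 520.0, 1507 and 898 CPM in AAV-Trib3 replicates 1 to 4. Each group held low and high libraries, and the 8 values spanned 3.08-fold. The means were 1063 ± 433 and 964 ± 407 CPM (SD, n = 4), with a log2 difference of −0.14 ± 0.36 (SE; edgeR unadjusted p = 0.708) that became 0.14 when AAV-GFP replicate 2 was left out and 0.06 when AAV-Trib3 replicate 2 was. With all libraries and library size alone as the scale, the log2 difference of Bhmt was −0.02.

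Bhmt2, whose enzyme takes S-methylmethionine as the methyl donor, is the neighbour of Bhmt on the same strand (ENSMUSG00000042118, chr13:93655720-93674302 in mm10). It had 113, 190.0, 151 and 139 CPM in AAV-GFP and 170.4, 140, 175 and 160.1 CPM in AAV-Trib3 replicates 1 to 4. The values spanned 1.68-fold, less than those of Bhmt. The means were 148 ± 32 and 161 ± 16 CPM (SD, n = 4), with a log2 difference of 0.12 ± 0.17 (SE; edgeR unadjusted p = 0.509).

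The FPKM ratio of Bhmt2 to Bhmt was 0.380, 0.287, 0.301 and 0.480 in AAV-GFP and 0.443, 0.651, 0.282 and 0.432 in AAV-Trib3 replicates 1 to 4. The ratio was highest in AAV-Trib3 replicate 2, where Bhmt was lowest, and the groups overlapped (log2 difference 0.29, exact two-sided permutation test, p = 0.4, 0.667 adjusted over 5 ratios). With the counts of near-identical copies added to Bhmt, the log2 difference was 0.32 (exact two-sided permutation test, p = 0.257).

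Mtr, the vitamin B12-dependent methionine synthase, takes its methyl group from a folate (ENSMUSG00000021311, minus strand, chr13:12186542-12258113 in mm10). It had 5.62, 3.51, 3.47 and 4.76 CPM in AAV-GFP and 2.80, 5.06, 3.96 and 3.51 CPM in AAV-Trib3 replicates 1 to 4. These rest on 35 to 78 counts per library, the fewest of any member, and the groups overlapped. The means were 4.34 ± 1.04 and 3.83 ± 0.95 CPM (SD, n = 4), with a log2 difference of −0.18 ± 0.26 (SE; edgeR unadjusted p = 0.492). Betaine-dependent transcripts outnumbered those of Mtr in 8 of 8 libraries, with an FPKM ratio of Bhmt to Mtr between 77.0 and 342, or between 152 and 676 with merged exons as the length. The group means of that ratio, 203 ± 119 and 201 ± 91 (SD, n = 4), lay far closer than the libraries within a group (log2 difference 0.03, exact two-sided permutation test, p = 0.971), and with the copies of Bhmt added the log2 difference was 0.0012.

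Transsulfuration runs through Cbs, which joins homocysteine to serine, and Cth, which releases cysteine. Cbs (ENSMUSG00000024039, minus strand, chr17:31612623-31637199 in mm10) had 238, 172, 196 and 214 CPM in AAV-GFP and 199, 185, 187 and 190 CPM in AAV-Trib3 replicates 1 to 4. The AAV-Trib3 libraries lay close together within the AAV-GFP range. The means were 205 ± 28 and 190 ± 6.2 CPM (SD, n = 4), with a log2 difference of −0.11 ± 0.14 (SE; edgeR unadjusted p = 0.445). Its 95% interval, −0.42 to 0.20, was the narrowest of the 10.

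Cth (ENSMUSG00000028179, minus strand, chr3:157894248-157925077 in mm10) is a known target of ATF4, the factor that also induces Trib3. It had 281, 270.1, 225 and 210.5 CPM in AAV-GFP and 301, 245, 407 and 277 CPM in AAV-Trib3 replicates 1 to 4. AAV-Trib3 replicates 1 and 3 lay above all AAV-GFP libraries, and replicates 2 and 4 lay among them. The means were 247 ± 34 and 308 ± 70.2 CPM (SD, n = 4), and the log2 difference of 0.32 ± 0.19 was the highest of the 10 (edgeR unadjusted p = 0.122, exact two-sided permutation p = 0.171). It was 0.16 without AAV-Trib3 replicate 3, and its 95% interval of −0.10 to 0.74 included 0.

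The FPKM ratio of Cth to Cbs was 1.83, 2.43, 1.77 and 1.52 in AAV-GFP and 2.34, 2.06, 3.37 and 2.26 in AAV-Trib3 replicates 1 to 4. AAV-GFP replicate 2 overlapped the AAV-Trib3 values, and the other 3 AAV-GFP libraries lay below them. With merged exons as the length the ratio lay between 2.63 and 5.85. The log2 difference of 0.41 had an exact two-sided permutation p of 0.114 (0.571 adjusted over the 5 ratios), where 4 against 4 libraries allow no p below 0.0286. It ran from 0.25 without AAV-Trib3 replicate 3 to 0.53 without AAV-GFP replicate 2. The last ratio compared, Ahcy to Mat1a, had means of 0.202 ± 0.060 and 0.201 ± 0.068 (SD, n = 4) and an exact two-sided permutation p of 0.971.

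Members differed in how much they varied between libraries. Over the 8 libraries the coefficient of variation was 10.3% for Cbs and 12.8% for Gnmt, 15.7% for Bhmt2, 21.9% for Cth, 22.9% for Ahcy and 23.5% for Mtr. It was 31.6% for Mat2a, 33.2% for Mat1a, 38.7% for Bhmt and 42.1% for Pemt. Among 1021 genes with a mean of at least 100 CPM, the lower quartile was 12.8%, the median 19.2% and the upper quartile 29.2%. Mat1a, Bhmt and Pemt thus lay above that upper quartile, and Cbs and Gnmt at or below the lower one, while Mat2a and Mtr had means under 100 CPM and are not comparable with it. For Pemt, AAV-GFP replicate 2 had 400.5 CPM, against 144 to 198 CPM in the other libraries. Its coefficient of variation was 53.4% within AAV-GFP, which holds that library, and 12.6% within AAV-Trib3.

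**Figure D5:**
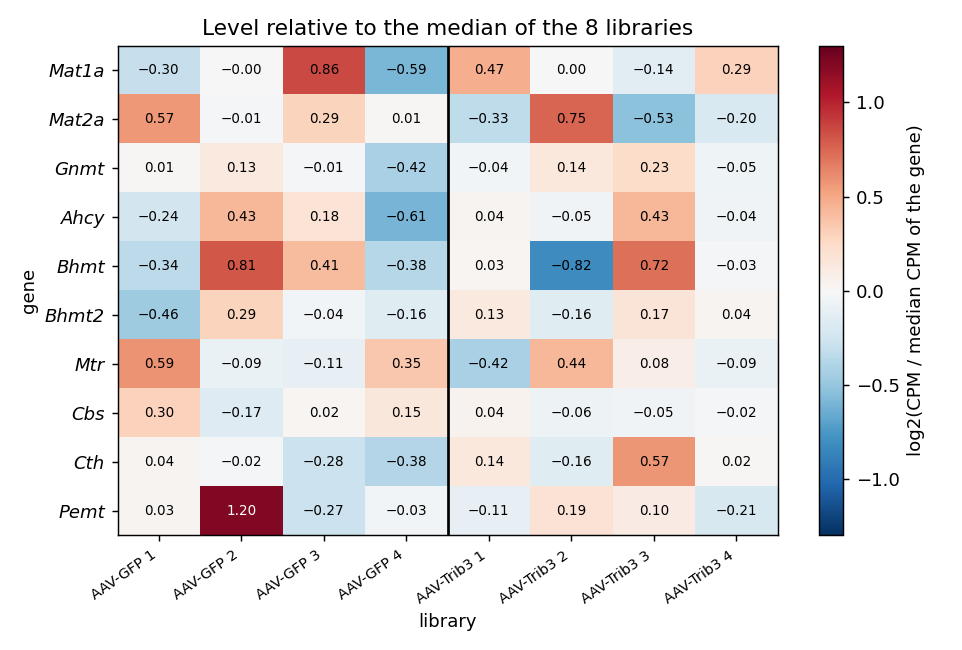
Log2 of each library's CPM over the median of the 8 libraries for that gene, with red for higher and blue for lower. Pemt in AAV-GFP replicate 2 reaches 1.203, Mat1a in AAV-GFP replicate 3 reaches 0.86, and Bhmt in AAV-Trib3 replicate 2 falls to −0.82.

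The libraries that were high differed from gene to gene. AAV-Trib3 replicate 3 had the highest Cth and Gnmt of the 8 libraries, with Ahcy 0.43 and Bhmt 0.72 above their medians on the log2 scale, and the lowest Mat2a, at −0.53. The same library had the highest sum of 7 periportal markers, at 11457 CPM against 4747 to 7409 in the other libraries, and each of the 7 was highest there. Its sum of 6 pericentral markers was the lowest, at 7815 against 9365 to 15293 CPM, but that sum was mostly Cyp2e1 (5975 CPM), and the other 5 markers were each lowest in another library. The part of these zonal markers in the members' values was not tested. AAV-Trib3 replicate 2 showed another order, with the highest Mat2a and the lowest Bhmt of the 8. Mat1a was highest in AAV-GFP replicate 3, followed by AAV-Trib3 replicates 1 and 4, the libraries with high acute phase genes. The acute phase sum was 14319 CPM in AAV-GFP replicate 3, against 29089 and 28777 CPM in those libraries. Single acute phase genes differed in AAV-GFP replicate 3. Saa1 (524 CPM), Saa2 (149 CPM) and Lcn2 (42.0 CPM) ranked next after those libraries, and Fgb (6939 CPM) was highest of all. Orm2 (9.60 CPM) and Hpx (2522 CPM) were lowest of all, and Hp (4133 CPM) lay between. The part of acute phase genes in the Mat1a values was not tested.

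Around the cycle, the other genes of the pathway were not called either, with 0 of 46 tested genes past the threshold in edgeR adjusted over all genes (0.00% of all genes), and 2 of 46 at an unadjusted p under 0.05, a share near the 3.14% of all genes. In 5 lists the median log2 difference was below 0: −0.13 for partners and regulators of the cycle (3 of 7 higher), −0.08 for betaine and choline oxidation (2 of 5), −0.10 for methionine salvage and polyamines (4 of 10), −0.09 for cysteine use and sulfide oxidation (4 of 10) and −0.13 for the CDP-choline pathway (2 of 6). Other SAM-dependent methyltransferases had a median of 0.05, with 6 of 8 higher. Of the 5 medians below 0, 3 turned with 1 library left out. That of the partners turned to 0.18 without AAV-GFP replicate 3. That of betaine and choline oxidation turned to 0.08 without AAV-GFP replicate 2 and to 0.0039 without AAV-Trib3 replicate 1. That of salvage turned to 0.02 without AAV-GFP replicate 1 and to 0.03 without AAV-GFP replicate 3. With 1 library left out, the number of higher genes in betaine and choline oxidation ran from 0 to 4 of 5. With all libraries and library size alone as the scale, the median of betaine and choline oxidation was 0.0082.

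Among partners of the cycle, Adk, the adenosine kinase that removes the adenosine released by Ahcy, had 395 ± 30 CPM with AAV-GFP and 461 ± 21 CPM with AAV-Trib3 (SD, n = 4; log2 difference 0.22 ± 0.13, edgeR unadjusted p = 0.128). Chdh, the choline dehydrogenase that supplies betaine to Bhmt, had 177 ± 31 and 149 ± 8.2 CPM (log2 difference −0.25 ± 0.15). Sardh and Dmgdh, which oxidise the sarcosine made by Gnmt and the dimethylglycine left by Bhmt, had log2 differences of −0.11 ± 0.28 and −0.08 ± 0.21 (SE).

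Among the methyltransferases, Hnmt, which inactivates histamine, had 19.2 ± 3.4 and 26.7 ± 6.1 CPM (log2 difference 0.48 ± 0.19, edgeR unadjusted p = 0.0344, adjusted p = 1.00). The arsenic methyltransferase As3mt had 28.2 ± 7.9 and 38.2 ± 7.6 CPM, and the protein repair enzyme Pcmt1 had 23.0 ± 4.7 and 19.0 ± 5.8 CPM. In the CDP-choline pathway the choline kinase Chkb had 30.1 ± 6.4 and 21.7 ± 5.6 CPM (log2 difference −0.47 ± 0.21, edgeR unadjusted p = 0.0480, adjusted p = 1.00). Pcyt1a, its rate-limiting enzyme, had 31.4, 17.4, 35.6 and 29.4 CPM in AAV-GFP and 30.1, 87.2, 36.9 and 32.6 CPM in AAV-Trib3 replicates 1 to 4, a log2 difference of 0.71 ± 0.36 (edgeR unadjusted p = 0.0762). Its highest value lay in AAV-Trib3 replicate 2, the library that was also highest in Mat2a. Cept1, which completes the route, had a log2 difference of −0.18 ± 0.15 (SE).

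In methionine salvage, which recovers the methylthio group left by polyamine synthesis, Mri1, Apip and Adi1 had log2 differences of −0.31 ± 0.16, −0.20 ± 0.13 and 0.19 ± 0.13 (SE). Apip was the 1 of the 46 genes whose groups did not overlap, close to the 2.29% of all genes, at 8.44 to 9.98 CPM with AAV-GFP and 7.56 to 8.23 CPM with AAV-Trib3, and edgeR did not call it (unadjusted p = 0.161). Downstream of cysteine, the mitochondrial sulfide enzymes Sqor and Ethe1 and the sulfite oxidase Suox had log2 differences of 0.27 ± 0.16, −0.37 ± 0.24 and −0.16 ± 0.14 (SE).

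The genes most like 9 of the members in log2 CPM over the 8 libraries, among 9936 genes whose mean log2 CPM reached 1, are given as a description. With 8 libraries and so many genes, a high Pearson r is reached by some gene for any pattern, and all genes share the libraries and their scaling. The most alike were Blcap for Mat1a (r = 0.986), Eif4ebp2 for Mat2a (0.988), Pigl for Ahcy (0.965), Alg14 for Bhmt (0.979) and Spns2 for Bhmt2 (0.979). For Mtr it was Mbd1 (0.988), for Cbs Wdfy3 (0.970) and for Pemt Yipf3 (0.990). For Gnmt it was Mup12 (0.957), which has many close paralogs, so its counts are uncertain.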

How the data were processed

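The deposited counts are whole numbers of reads per gene without normalisation, per the file headers, and were used for all tests. The FPKM deposited by the authors scale the same counts by the library total and a gene length, and served only to compare levels between genes. Per the submitters' processing notes, reads were trimmed with Trimmomatic and the build is mm10. The sources used here name no aligner, counting program, annotation release or strand setting. Columns were matched to samples by the code in each title.

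Genes were filtered with filterByExpr (11036 of 34745 kept), scaled by TMM and tested with edgeR 4.0.16 (glmQLFit, robust, glmQLFTest), comparing AAV-Trib3 with AAV-GFP without covariates, and p was adjusted after Benjamini-Hochberg with calls at 0.05. SEs were derived from the fold change and F. Ratios (log2 of counts plus 0.5) and single values went through an exact two-sided permutation test over 70 relabellings. Other software was R 4.3.3, limma 3.58.1, DESeq2 1.42.0 and Python 3.11.15 and blastn 2.17.0. The test was checked on simulated data. Lengths, copies and the Mat2a sites came from GENCODE M21. Sqor was matched as Sqrdl.

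Members and lists were chosen with earlier results of these data known. Named were all members, up to 3 genes with the smallest p of each other list, Trib3, and the gene most like each member, which for Cth is not reported here. Gm4737, Gm5096, Bhmt-ps1, Particl, Gm43314, Gm9523, Gm48675, Gm9826, Gm5638 and Gm4913 were named after their values or alignments were seen. Alternatives were DESeq2 size factors, library size alone, removal of mitochondrial genes, DESeq2, limma-voom, no filter, a stricter filter, non-robust estimation, a block for the replicate number, a ratio pseudocount of 0, and each library left out. Adding the counts of near-identical copies was chosen after seeing the data. Replicates differed by a chi-square per degree of freedom of 15.6 to 189. Pairs with AAV-GFP replicate 2 lay at 159 to 189, and the other AAV-GFP pairs at 32.6 to 58.9. All 8 libraries were kept in the main test.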

Additional observations from a re-analysis of the deposited data

Results flagged for a closer look

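Of 30 groups of 4 libraries examined (10 members and 5 ratios in each treatment), 3 held a library whose gap to its nearest neighbour, divided by the range of the group, exceeded Dixon's 95% critical value of 0.829, and chance flags about 1 group in 20. Pemt stood at 400.5 CPM in AAV-GFP replicate 2, against 144 to 178 CPM in the rest of that group. Ahcy stood at 737 CPM in AAV-Trib3 replicate 3, against 530.0 to 563 CPM. The FPKM ratio of Mat2a to Mat1a was 0.0136 in AAV-Trib3 replicate 2, against 0.00465 to 0.00614.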

How the results depend on the processing

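Over 17 alternative fits, 0 of the 10 members were called in any. Genes called over the whole table numbered 0 in the main test, 7 with DESeq2's Wald test and 0 to 3 when 1 library was left out (3 without AAV-GFP replicate 3). Members whose groups did not overlap numbered 0, and 0 to 1 when 1 library was left out (1, Mat2a, without AAV-Trib3 replicate 2). Gnmt, Bhmt2 and Cth were higher and Mat2a, Mtr and Cbs lower in all 17. Directions turned for Mat1a (−0.035 without AAV-GFP replicate 1, −0.10 without AAV-GFP replicate 4, −0.035 without AAV-Trib3 replicate 1), for Ahcy (−0.047 without AAV-GFP replicate 4, −0.011 without AAV-Trib3 replicate 3), for Bhmt without AAV-GFP replicate 2 (0.14) or AAV-Trib3 replicate 2 (0.057), and for Pemt without AAV-GFP replicate 2 (0.094). With 1 library left out, log2 differences ran from −0.10 to 0.46 for Mat1a, −0.047 to 0.30 for Ahcy, −0.44 to 0.14 for Bhmt, −0.52 to 0.094 for Pemt, 0.026 (without AAV-GFP replicate 4) to 0.21 for Gnmt, 0.0091 (without AAV-GFP replicate 1) to 0.27 for Bhmt2, 0.16 to 0.41 for Cth, −0.59 to −0.074 for Mat2a, −0.35 to −0.036 for Mtr and −0.18 to −0.032 for Cbs (both nearest 0 without AAV-GFP replicate 1), and log2 ratio differences ran from −0.79 to −0.24 for Mat2a to Mat1a, 0.092 to 0.50 for Bhmt2 to Bhmt, 0.25 to 0.53 for Cth to Cbs, −0.26 to 0.44 for Bhmt to Mtr and −0.22 to 0.15 for Ahcy to Mat1a. Genes at an unadjusted p under 0.05 numbered 346 in the main test, 224 with library size alone, 225 with the replicate block and 263 to 566 with 1 library left out. The labels do not say that replicate numbers pair the libraries. Deviations of same-numbered libraries had correlations of −0.27 to −0.032, which cannot exclude a pairing with so few libraries. The replicate block called 0 genes and turned 0 members. Paired sign flips gave an exact p of 0.5, 0.625, 0.25, 0.875 and 1 for the 5 ratios in the order above. Depth limits Mtr, with 35 to 78 counts, more than any other member.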
